A study of Mus musculus with 12 samples.

Results

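The 10 genes described here are Cyp17a1, Hsd3b5, Hsd3b2, Hsd3b3, Akr1d1, Akr1c6, Srd5a1, Hsd11b1, Hsd17b2 and Hsd17b6, which encode enzymes that make, oxidize or reduce steroid hormones in the liver. They are 10 of the 54532 genes in the expression table, each found by its symbol, and they were chosen by function with the difference between the control and ND mice already known, so values against ND are given as a description without a test. RNA was sequenced from the livers of 12 male C57BL/6J mice, 3 in each of 4 groups, kept on their diets for 26 weeks from 5 weeks of age. ND mice ate a normal diet, control mice a high-fat diet, HYA mice the high-fat diet with 1% HYA, and LA mice the high-fat diet with 1% linoleic acid (LA). HYA arises when lactic acid bacteria of the gut hydrate LA, so the HYA and LA groups compare a fatty acid with its bacterial hydration product at the same dose. The model was induced by diet alone in an inbred strain of 1 sex, and the replicates are separate mice. Between 17169064 and 25220880 fragments were assigned to genes in each mouse, and expression was given as FPKM, fragments per kilobase of gene scaled to a total for each mouse. This total was not the fragments counted: it was 17569156 against 18443002 in ND mouse 1 and 21503657 against 19558364 in control mouse 1. It lay below the fragments counted in every ND mouse and above them in every control and LA mouse. In HYA mouse 1 it lay above them (19388744 against 19206373) and in HYA mice 2 and 3 below them (18129254 against 18355799 and 24719831 against 25220880). How it was set is not given in the sources used here. Correlations across genes between mice of 1 group lay between 0.9923 and 0.9949. The 8 hepatocyte markers examined, including Alb, Ttr and Cps1, together reached 31790 FPKM or more in each mouse.

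The liver is a principal site of steroid hormone inactivation. Reductases saturate the steroid ring, hydroxysteroid dehydrogenases interconvert hydroxyl and keto groups, and transferases then attach sulfate or glucuronic acid for excretion. Some of these enzymes work the other way and regenerate an active hormone, as the product of Hsd11b1 does for glucocorticoids. In rodents many of them differ between the sexes, and Hsd3b5 is known as a gene expressed in male liver.

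Hsd3b2, Hsd3b3 and Hsd3b5 lie on the minus strand of chromosome 3 (GRCm38), at 98709255 to 98724543, 98741523 to 98763127 and 98618634 to 98630252. The coding sequences are each 1119 bases long in GENCODE M21. Those of Hsd3b2 and Hsd3b3 were identical at 95.1% of aligned positions, with 228 bases as the longest identical run, whereas Hsd3b5 matched them at 80.3% and 79.5%, with longest runs of 32 and 41 bases. The stretch of coding positions 589 to 648 is shown because it separates the 3 genes, with capitals at positions where they are not all alike; in each gene it lies within 1 exon.
Hsd3b5, chr3:98619481-98619540, minus strand: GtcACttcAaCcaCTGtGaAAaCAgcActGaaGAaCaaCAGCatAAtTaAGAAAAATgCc
Hsd3b2, chr3:98711980-98712039, minus strand: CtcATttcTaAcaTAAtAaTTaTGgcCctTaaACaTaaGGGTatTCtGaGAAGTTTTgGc
Hsd3b3, chr3:98742358-98742417, minus strand: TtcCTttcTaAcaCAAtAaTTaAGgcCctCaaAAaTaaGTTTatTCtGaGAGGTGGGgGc
Within these 60 bases Hsd3b5 differed from Hsd3b2 at 30 positions and from Hsd3b3 at 32. Of all windows of 150 bases in its transcript, Hsd3b5 shared 1.21% exactly with another gene (Hsd3b4 and Gm10681). Hsd3b2 shared 2.23% with Hsd3b3, and Hsd3b3 shared 6.14% with Hsd3b2 and Hsd3b6. How multiply mapping fragments were counted is not given in the sources used here, so the split between Hsd3b2 and Hsd3b3 is the less certain one. Srd5a1 shared 13.1% of its windows with Gm17108, a transcript model that overlaps it, and Hsd17b6 shared 7.21% with Rdh1 and Rdh16f1. Cyp17a1, Akr1d1, Akr1c6, Hsd11b1 and Hsd17b2 shared none.

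Promoter windows from RefSeq (GRCm38.p6), running from 250 bases before to 50 bases after a start site, were matched for 8 of the 10 genes, in 10 windows, and not for Cyp17a1 or Hsd17b2. The windows of Hsd3b5 and Hsd3b3 are shown because these related genes had very different levels in control and LA mice. Capitals mark CCAAT matches on either strand.
Hsd3b5, chr3:98645485-98645784, minus strand: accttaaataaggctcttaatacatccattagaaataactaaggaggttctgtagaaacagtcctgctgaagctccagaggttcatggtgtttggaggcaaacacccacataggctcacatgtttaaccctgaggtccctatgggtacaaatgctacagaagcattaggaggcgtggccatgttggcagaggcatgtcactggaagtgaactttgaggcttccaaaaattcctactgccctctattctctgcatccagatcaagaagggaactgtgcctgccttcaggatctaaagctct
Hsd3b3, chr3:98763079-98763378, minus strand: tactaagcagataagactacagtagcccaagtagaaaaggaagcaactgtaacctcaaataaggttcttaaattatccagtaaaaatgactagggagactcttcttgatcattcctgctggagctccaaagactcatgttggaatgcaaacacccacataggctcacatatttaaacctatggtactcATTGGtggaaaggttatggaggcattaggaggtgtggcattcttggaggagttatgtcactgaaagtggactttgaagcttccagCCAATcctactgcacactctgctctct
These windows aligned with 54.1% identity. The RefSeq start of Hsd3b5 lies 15282 bases from the start of the gene model in the expression table, so the window belongs to another first exon than that model. For Hsd11b1 the distance is 21715 bases. Searching both strands, the CCAAT letters were found in the windows of 5 of the 8 genes (Akr1c6, Hsd11b1, Hsd17b6, Hsd3b3 and Srd5a1), against 37.4% of 32851 promoter windows of the same length. The count is per gene and the share per window, and Hsd17b6 and Hsd3b3 had 2 windows each, so the units are unlike. The nuclear receptor half-site AGGTCA was found in Akr1d1 only, at 2 places, against 16.3% of windows, and TATAAA in Akr1c6 only, against 13.6%. The STAT5 letters TTCNNNGAA (8.3% of windows), the glucocorticoid response core ACANNNTGT (6.85%) and the NR5A letters CAAGGTCA (1.56%, which contain AGGTCA) were in none of the 10 windows. These are letter matches only.

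In the ND mice the members covered a wide range of FPKM. Akr1c6, an aldo-keto reductase with 17-ketosteroid reducing activity, was the highest at 599.3 FPKM (range 543.3 to 639.3, n = 3) and Hsd3b5 the next at 161.1 ± 21.6 FPKM (SD, n = 3), overlapping the range of Hsd11b1 at 135.6 ± 3.59 FPKM. Hsd17b6, Hsd17b2 and Akr1d1 followed at 105.8, 90.3 and 71.1 FPKM, each overlapping the next in range. Hsd3b3 (40.7 FPKM) and Srd5a1 (37.9 FPKM) overlapped too, Hsd3b2 stood apart at 25.2 FPKM, and Cyp17a1 was lowest at 1.67 ± 0.0796 FPKM. In the control mice Akr1c6 was again highest, but Cyp17a1 ranked number 4 and Hsd3b5 last. These orders hold for FPKM only, since the gene lengths behind it exceed the transcripts by unlike amounts. Hsd11b1 has 4251 bases against a transcript of 1623, Hsd3b3 6396 against 1533, and Hsd3b5 1549 in both. In fragments the ND mice together had 29650 for Hsd11b1, 13387 for Hsd3b3 and 12842 for Hsd3b5. Comparisons of 1 gene between groups use the same length throughout. All 10 members passed the minimum of a mean of 1 FPKM over the 12 mice used for testing; Hsd3b5, which averaged under 1 FPKM in the control and LA mice, passed it through the other groups.

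**Figure D1:**
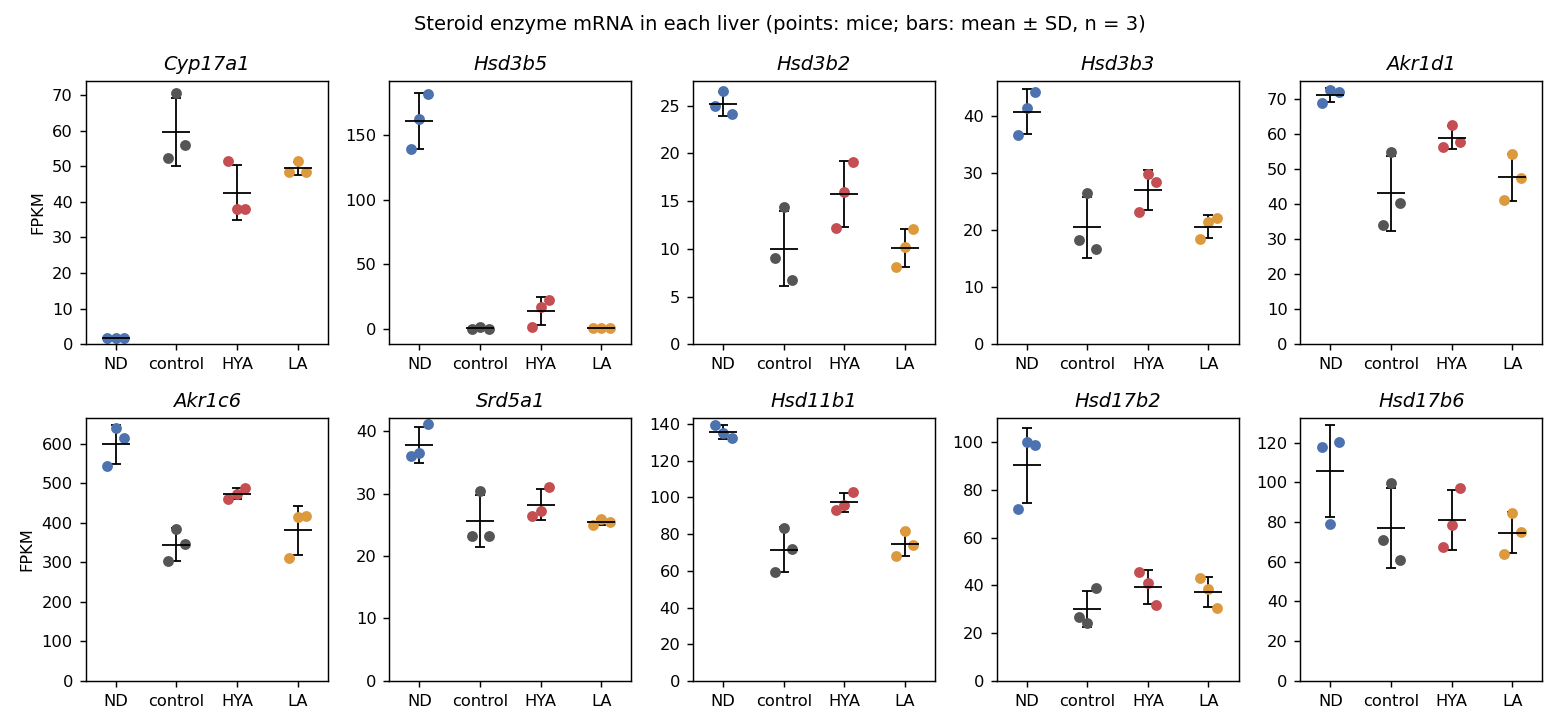
Expression of the 10 genes in FPKM (vertical axes, linear, each on its own scale) in each mouse (points) of the 4 diet groups, with mean and SD (bars, n = 3). Cyp17a1 was near 1.67 FPKM in ND mice and above 37 FPKM in each mouse fed a high-fat diet, and the other 9 genes had their highest group mean in ND mice.

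Cyp17a1, on chromosome 19 (46667165 to 46672974), encodes the P450 that hydroxylates pregnenolone and progesterone and cleaves their side chain to give androgen precursors. It was at 1.76, 1.63 and 1.62 FPKM in ND mice 1, 2 and 3 and at 52.4, 70.5 and 55.8 FPKM in the control mice. HYA mice had 51.5, 38.1 and 37.99 FPKM and LA mice 48.3, 51.5 and 48.4 FPKM. Thus every mouse fed a high-fat diet lay far above every ND mouse, and every HYA and LA mouse lay below every control mouse. The control mean of 59.6 ± 9.61 FPKM was 35.7 times that of ND mice, the HYA mean of 42.5 ± 7.77 FPKM 25.5 times and the LA mean of 49.4 ± 1.81 FPKM 29.6 times. The signal rested on 186 fragments in the ND mice together and on 5693 or more in each of the other groups. On the log2(FPKM + 1) scale the HYA mice differed from the control mice by -0.48 (SE 0.13, 95% interval -0.76 to -0.20, adjusted p = 0.0689, limma with Benjamini-Hochberg adjustment over 11083 genes), which missed the threshold. The LA mice differed from them by -0.25 (95% interval -0.53 to 0.02, adjusted p = 0.999).

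Transcripts of steroid-making cells of the adrenal and gonads were at or near 0 in these livers. The 10 markers of such cells summed to 0.906 to 1.72 FPKM per ND mouse, 1.10 to 1.88 per control mouse, 1.03 to 1.55 per HYA mouse and 1.40 to 3.02 per LA mouse, and 0 of the 10 reached a mean of 1 FPKM. Cyp11b1, Cyp19a1, Fshr and Mc2r had 0 fragments in all mice. Insl3, Cyp21a1 and Star averaged 0.726, 0.573 and 0.211 FPKM, and Cyp11a1, which starts steroid synthesis from cholesterol, averaged 0.00232 FPKM.

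Hsd3b5 encodes a member of the 3β-hydroxysteroid dehydrogenase family that acts as a ketosteroid reductase. ND mice had 138.9, 162.3 and 182.0 FPKM, control mice 0.0901, 1.27 and 0.0935 FPKM, and LA mice 0.182, 0.363 and 0.434 FPKM. HYA mice had 1.40, 17.0 and 22.4 FPKM, so that HYA mice 2 and 3 stood well above the other mice fed a high-fat diet and HYA mouse 1 did not. The low values were few fragments: 3, 42 and 3 in control mice 1 to 3 and 6, 12 and 15 in LA mice 1 to 3, against 42, 477 and 859 in HYA mice 1 to 3. With exact Poisson 95% intervals, which cover counting error only, control mouse 2 lay between 0.915 and 1.72 FPKM and HYA mouse 1 between 1.01 and 1.89 FPKM, so these mice could not be separated at this depth. The highest LA mouse lay between 0.243 and 0.717 FPKM, below the interval of each HYA mouse. The ND mean was 333 times the control mean, 493 times the LA mean and 11.8 times the HYA mean; 42 of the 48 control fragments came from control mouse 2.

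Hsd3b5 was higher in HYA than in LA mice by 2.92 on the log2(FPKM + 1) scale (SE 0.67, 95% interval 1.43 to 4.41), with an adjusted p of 0.0720 in limma. Against the control mice the difference was 2.85 (SE 0.67, 95% interval 1.36 to 4.34), with an adjusted p of 0.0516 in limma. Both missed the threshold of 0.05, and leaving out 1 mouse could move them past it. Without HYA mouse 1 the limma values were 3.96 against LA (adjusted p = 0.00101) and 3.88 against control (adjusted p = 0.00121), and without control mouse 2 the latter was 3.20 (adjusted p = 0.0364). A pseudocount of 0.1 (adjusted p = 0.0448) and conversion to TPM (adjusted p = 0.0373) also brought the HYA against control difference past the threshold in limma. Other alternatives moved it away: the adjusted p was 0.261 with voom on recovered fragments, the highest of all. In limma it was 0.203 with only the groups compared and 0.115 with no minimum level. Without HYA mouse 2 or 3 it was 0.193 or 0.136, and without control mouse 1 or 3 it was 0.195 or 0.128. LA and control mice differed by -0.08 (95% interval -1.57 to 1.41), an interval too wide to show a difference or likeness.

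The relatives Hsd3b2 and Hsd3b3 encode enzymes of the 3β-hydroxysteroid dehydrogenase and isomerase family and kept much more of their ND level. Hsd3b2 was at 24.9, 26.6 and 24.1 FPKM in ND mice, 9.02, 14.3 and 6.73 in control mice, 12.2, 15.9 and 19.1 in HYA mice and 8.05, 10.2 and 12.0 in LA mice. Hsd3b3 was at 36.5, 41.4 and 44.2 FPKM in ND mice, 18.3, 26.5 and 16.6 in control mice, 23.1, 29.8 and 28.3 in HYA mice and 18.4, 21.3 and 22.1 in LA mice. For both genes the HYA mice lay above every LA mouse in FPKM, though not under TPM, while control mouse 2 lay within the HYA range. ND means were 2.51 and 1.99 times the control means. HYA mice differed from LA mice by 0.59 (95% interval 0.08 to 1.10, adjusted p = 0.219) for Hsd3b2 and by 0.37 (95% interval 0.03 to 0.72, adjusted p = 0.255) for Hsd3b3 in limma. As a share of the summed FPKM of the 3 genes, Hsd3b5 made up 69.3% to 72.7% in ND mice, 0.329% to 3.01% in control mice, 0.684% to 1.26% in LA mice, and 3.81%, 27.1% and 32.1% in HYA mice 1, 2 and 3. The sum itself was 200.4 to 250.3 FPKM in ND mice, 23.4 to 42.1 in control mice, 36.7 to 69.9 in HYA mice and 26.6 to 34.5 in LA mice. These shares and sums depend on the gene lengths behind the FPKM: 6396 bases for Hsd3b3, 3695 for Hsd3b2 and 1549 for Hsd3b5. The transcripts whose windows were compared above are 1533, 3695 and 1549 bases long. In fragments the ND mice together had 13387 for Hsd3b3, 12842 for Hsd3b5 and 4776 for Hsd3b2. Which of Hsd3b5 and Hsd3b3 prevailed in ND livers therefore depends on the length used. In control and LA livers Hsd3b5 was the smallest part by either measure, with 48 and 33 fragments per group.

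**Figure D2:**
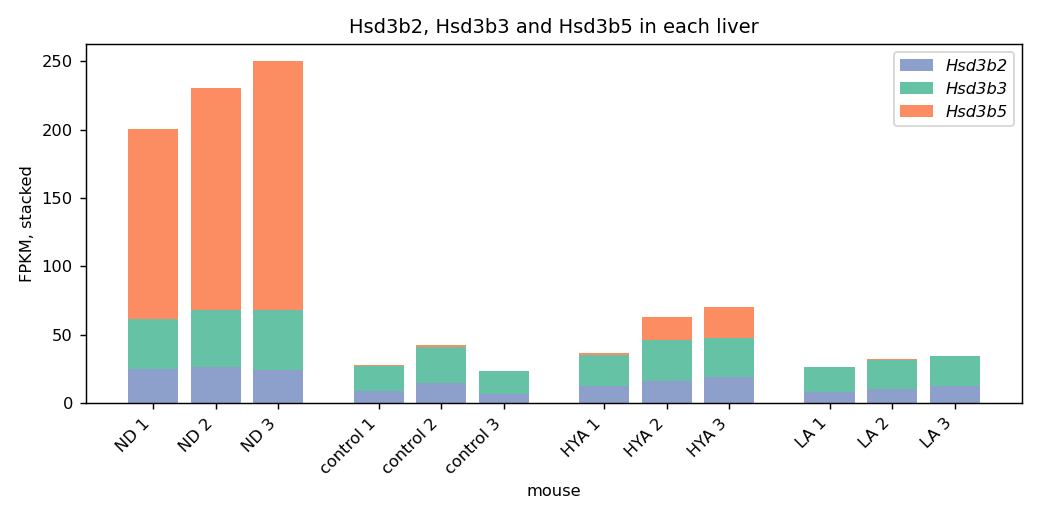
Stacked FPKM of Hsd3b2, Hsd3b3 and Hsd3b5 (vertical axis, linear) in each of the 12 mice. Hsd3b5 fills 69.3% or more of the bar in ND mice, is barely visible in control and LA mice, and is visible in HYA mice 2 and 3. The parts of a bar depend on the gene length that FPKM divides by, which is 6396 bases for Hsd3b3 and 1549 for Hsd3b5.

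Akr1d1, Akr1c6 and Srd5a1 encode reductases. Akr1d1 is the 5β-reductase of steroids and bile acid precursors (chromosome 6, 37530173 to 37568815), with 68.9, 72.5 and 71.9 FPKM in ND mice, 34.1, 54.8 and 40.2 in control mice, 56.3, 62.5 and 57.8 in HYA mice, and 41.0, 54.3 and 47.4 in LA mice. Akr1c6 (chromosome 13, 4434306 to 4457877) had 543.3, 639.3 and 615.3 FPKM in ND mice, 303.7, 385.4 and 347.3 in control mice, 460.9, 473.7 and 487.8 in HYA mice, and 310.5, 415.5 and 417.4 in LA mice. For both genes all HYA mice stood between the ND mice on one side and the control and LA mice on the other, without overlap in FPKM. Akr1d1 did not keep this order under TPM, where HYA mouse 1 fell below control mouse 2 and LA mouse 2. HYA mice differed from control mice by 0.47 for Akr1d1 (SE 0.15, adjusted p = 0.116) and 0.46 for Akr1c6 (SE 0.12, adjusted p = 0.0702) in limma, and from LA mice by 0.31 (adjusted p = 0.309) and 0.33 (adjusted p = 0.198). Srd5a1, a steroid 5α-reductase on chromosome 13 (69573449 to 69611442), varied less: 35.9, 36.4 and 41.2 FPKM in ND mice, 23.2, 30.5 and 23.3 in control mice, 26.4, 27.2 and 31.0 in HYA mice, and 24.9, 25.9 and 25.4 in LA mice. Its HYA and control ranges overlapped, and the difference was 0.14 (95% interval -0.09 to 0.37, adjusted p = 0.524, limma). Srd5a1 overlaps Nsun2 on the opposite strand, at 13.3 FPKM on average, and without a stated strand setting their fragments cannot be told apart where the exons overlap.

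Hsd11b1 encodes the reductase that regenerates active glucocorticoid from its inert keto form (chromosome 1, 193221634 to 193264075). It was at 139.4, 135.3 and 132.2 FPKM in ND mice, 59.1, 83.5 and 72.1 in control mice, 93.1, 95.8 and 103.2 in HYA mice, and 68.2, 81.7 and 74.3 in LA mice. The HYA mice again lay apart from both other high-fat groups and below the ND mice. The ND mean was 1.90 times the control mean and 1.39 times the HYA mean. HYA differed from control by 0.45 (SE 0.11, 95% interval 0.21 to 0.69, adjusted p = 0.0548) and from LA by 0.38 (SE 0.11, 95% interval 0.14 to 0.62, adjusted p = 0.114) in limma, both short of the threshold.

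Hsd17b2 and Hsd17b6 encode dehydrogenases that oxidize hydroxysteroids. Hsd17b2, whose product inactivates estradiol and testosterone (chromosome 8, 117701904 to 117759027), was at 72.01, 99.96 and 98.9 FPKM in ND mice, 26.97, 24.5 and 38.8 in control mice, 45.6, 41.2 and 31.7 in HYA mice, and 42.96, 38.4 and 30.6 in LA mice. After Hsd3b5 this was the widest gap below ND, with an ND mean 3.003 times the control mean, and the 3 high-fat groups overlapped one another. Hsd17b6 (chromosome 10, 127990936 to 128007611) was at 117.8, 79.0 and 120.4 FPKM in ND mice, 70.9, 99.7 and 60.7 in control mice, 67.5, 78.6 and 97.3 in HYA mice, and 64.1, 84.7 and 74.9 in LA mice. It was the 1 member whose ND range overlapped that of each other group. HYA against control gave 0.40 (95% interval -0.05 to 0.84) for Hsd17b2 and 0.09 (95% interval -0.38 to 0.56) for Hsd17b6, and HYA against LA gave 0.08 (95% interval -0.36 to 0.52) and 0.11 (95% interval -0.36 to 0.58). Conversion to TPM turned the sign of 3 of these differences (all but Hsd17b2 in HYA against control), to -0.04 or closer to 0. TPM moved the median of all genes by over 0.1, from 0.02 to -0.09 in HYA against control and from 0.01 to -0.10 in HYA against LA; relative to that median the Hsd17b6 differences were 0.06 and 0.09, and that of Hsd17b2 in HYA against LA 0.06.

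Among the mice fed a high-fat diet the members were compared by their ranges and by the fit over all genes. Between HYA and control mice the ranges did not overlap for 5 of 10 members (Hsd3b5, Akr1d1, Akr1c6 and Hsd11b1 higher, Cyp17a1 lower), beside 21.6% of all 11083 genes tested. Against LA they did not overlap for 7 of 10, all higher in HYA mice (Hsd3b5, Hsd3b2, Hsd3b3, Akr1d1, Akr1c6, Srd5a1 and Hsd11b1), beside 25.2% of genes. These counts are for FPKM and depended on scaling. Under TPM the HYA and LA ranges of Hsd3b2, Hsd3b3, Akr1d1 and Srd5a1 overlapped, as did the HYA and control ranges of Akr1d1. The share of all genes under TPM was not determined. LA and control ranges did not overlap for 1 of 10 (Cyp17a1), beside 7.55% of genes, and for control against ND the figure was 9 of 10 beside 45.6%, from which nothing is read since that contrast drew attention to these genes. The control mice are shared by that contrast and by both comparisons with control; the HYA against LA comparison uses none of them.

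In limma 0 of the 10 members passed both the adjusted p of 0.05 and a change of 1 on the log2 scale in HYA against control (0.307% of all genes did), in LA against control (0%) or in HYA against LA (0.108%). By the adjusted p alone the counts were also 0, beside 2.8% of genes in HYA against control and 0.487% in HYA against LA. An unadjusted p under 0.05 was reached by 7 members in HYA against control (18.5% of genes), 0 in LA against control (2.65%) and 5 in HYA against LA (17.2%). A voom fit to the recovered fragment counts called 0 members with both thresholds, and by the adjusted p alone 3 in HYA against control (Akr1c6, Cyp17a1 and Hsd11b1; 3.79% of all genes passed it) and 0 in the other comparisons. Without control mouse 2, 6 members passed the adjusted p in HYA against control in limma (Akr1c6, Akr1d1, Hsd11b1, Hsd3b2, Hsd3b3 and Hsd3b5), and 1 of them, Hsd3b5, passed both thresholds. The share of all genes that passed the adjusted p rose as well, from 2.8% to 5.89%. Leaving out HYA mouse 1 gave 2 members (Cyp17a1 and Hsd3b5, beside 0.758% of all genes). Leaving out HYA mouse 2 or 3 or control mouse 1 or 3 gave 0 members (0% to 0.722% of all genes). The median difference of the members was 0.43 in HYA against control, 0.04 in LA against control and 0.32 in HYA against LA, beside 0.02, 0.00 and 0.01 over all genes. Under TPM the distance of the members' median from that of all genes was 0.41 and 0.30 in the comparisons of HYA with control and LA, as it was with FPKM.

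**Figure D3:**
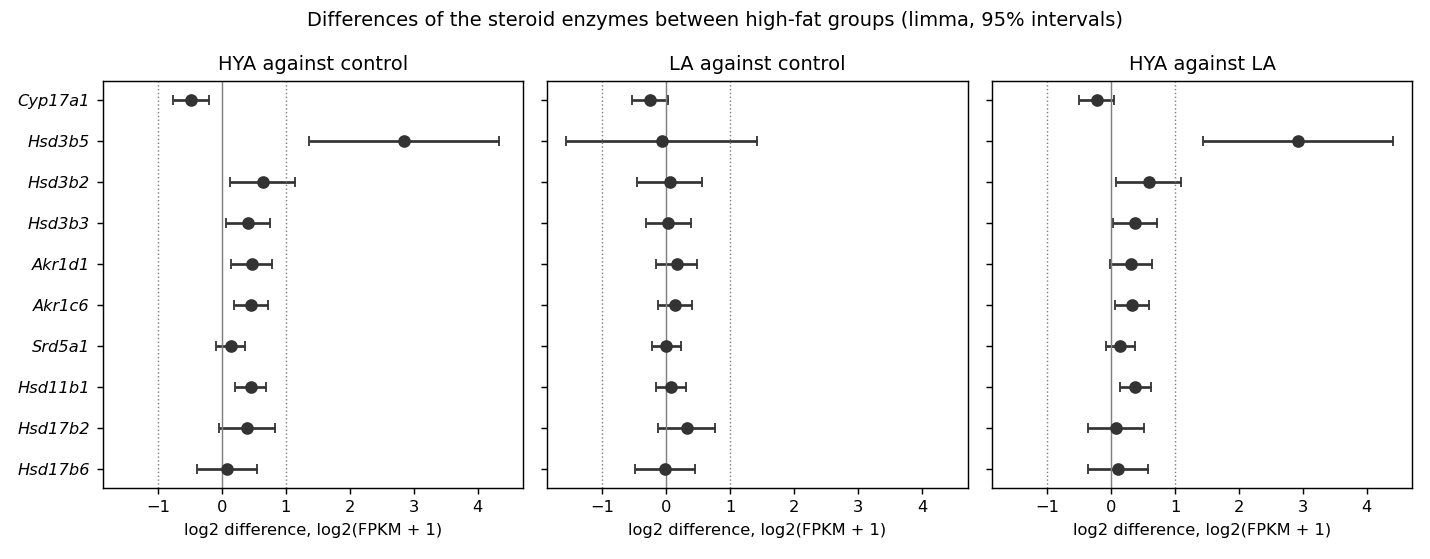
Differences of the 10 genes on the log2(FPKM + 1) scale (horizontal axes) with 95% intervals from limma in 3 comparisons; dotted lines stand at a change of 1 in either direction. Hsd3b5 is at 2.85 and 2.92 in the HYA comparisons, Cyp17a1 lies below 0, and the intervals of LA against control all include 0.

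The same values can be read mouse by mouse. Over the 9 mice fed a high-fat diet, Hsd3b5 and Hsd11b1 had a Pearson r of 0.82 and a Spearman rho of 0.97 on the log2 scale, and Akr1d1 (r 0.71, rho 0.97), Hsd3b3 (0.85, 0.95), Hsd3b2 (0.85, 0.93), Akr1c6 (0.75, 0.93) and Srd5a1 (0.70, 0.93) were alike. Hsd17b6 (0.54, 0.58) and Hsd17b2 (0.06, 0.15) followed Hsd3b5 less, and Cyp17a1 had the opposite sign (-0.71, -0.53). These coefficients describe 9 points in 3 diet groups that share a library and depth per mouse, and include the differences between groups. Hsd3b5 itself had 3 fragments in each of control mice 1 and 3 and 6, 12 and 15 in LA mice 1 to 3. Counting error leaves the order of these mice by Hsd3b5 uncertain, and the rank coefficients with it. Among genes outside the members, Rap2a (r 0.97), Ugt1a1 (r 0.97) and Phf11c (r 0.97) were most like Hsd3b5 over these mice, and Epsti1 (r 0.93), Dlec1 (r 0.91) and Oas2 (r 0.90) most like Cyp17a1. Phf11c, Epsti1, Dlec1 and Oas2 averaged between 0.754 and 2.01 FPKM in each group, so their likeness rests on low levels.

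**Figure D4:**
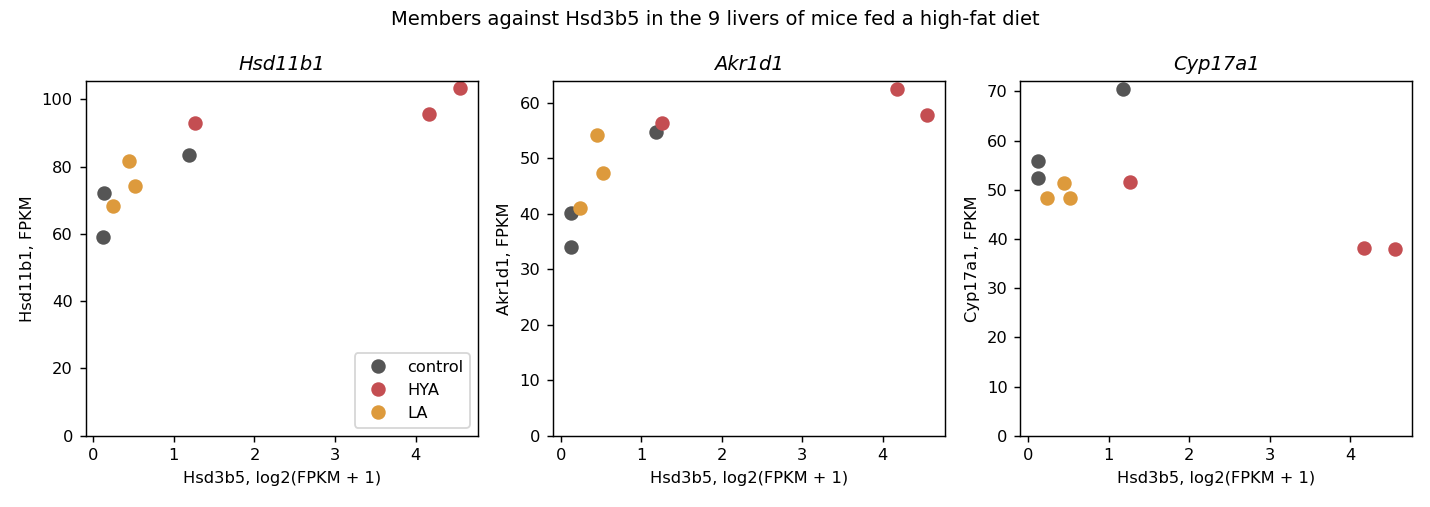
FPKM of Hsd11b1, Akr1d1 and Cyp17a1 (vertical axes, linear) against Hsd3b5 on the log2(FPKM + 1) scale (horizontal axes) in the 9 mice fed a high-fat diet, coloured by group. Control mouse 2 and HYA mouse 1 sit next to each other on the horizontal axis, and HYA mice 2 and 3 lie to the right with the lowest Cyp17a1.

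Other genes of steroid metabolism and response, 91 of which were in the table and 62 of which passed the minimum level, gave a mixed picture. In control against ND 2 rose (Lcn2 and Cdkn1a) and 4 fell past both thresholds (3.88% of all genes passed them), and 13 rose and 23 fell by the adjusted p alone (35.3% of all genes), with a median difference of -0.20. The balance depended on scaling: with TPM, which moved the median of all genes from -0.04 to 0.17, 4 rose and 3 fell past both thresholds, 17 rose and 11 fell by the adjusted p alone, and the median was 0.00. Cyp7b1, the oxysterol hydroxylase, fell by 2.20 from 101.0 ± 18.5 to 21.5 ± 5.91 FPKM, and the sulfotransferase gene Sult2a8 fell by 2.06 from 252.1 ± 20.2 to 65.1 ± 33.8 FPKM. The glucuronosyltransferase genes Ugt2b1 and Ugt2b38 fell by 1.33 and 1.16. Of the 9 tested conjugation genes 7 fell by the adjusted p and 0 rose (5 and 0 with TPM). Of 11 other hydroxysteroid dehydrogenases, in contrast, 7 rose and 1 fell by the adjusted p (9 and 0 with TPM), among them Hsd17b13, a lipid droplet protein (0.82, from 157.3 to 278.2 FPKM), Rdh16 (0.77) and Hsd17b12 (0.40). Of 9 other reductases 5 fell and 2 rose (3 and 2 with TPM), with Akr1c14 at -0.69, Akr1c12 at -0.61 and Akr1c13 at -0.50; Akr1c12 and Akr1c13 are close relatives whose fragments may be split. Hsd3b7, the bile acid enzyme and the 1 other Hsd3b gene with enough signal, was at -0.53 (adjusted p = 0.0681, limma). Of 11 receptors and carriers 5 fell and 1 rose (1 and 1 with TPM), including the glucocorticoid receptor gene Nr3c1 (-0.42), Pgrmc1 (-0.31) and Pgrmc2 (0.52), and of 9 hydroxylases and electron donors 4 fell and 0 rose (1 and 2 with TPM), including Cyb5a, whose product aids the lyase step of Cyp17a1, at -0.28 and Fdx1 at -0.32.

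In HYA against control 2 of the 62 rose past both thresholds and 0 fell: Sult2a8 by 1.57 to 179.6 ± 13.9 FPKM (adjusted p = 0.0323, limma) and Cyp7b1 by 1.01 to 43.5 ± 4.22 FPKM (adjusted p = 0.0348, limma). Both calls were lost when any of HYA mice 1 to 3 or control mice 1 or 3 was left out, with no minimum level, and with only the groups compared in the fit, each of which leaves 0 called. By the adjusted p alone 5 rose and 1 fell, the latter being Hsd17b13 at -0.35 and the former including Ugt2b1 at 0.61 and Klf9, a glucocorticoid-responsive factor, at 0.65. LA against control and HYA against LA gave 0 calls in limma by either rule, with medians of -0.01 and 0.15. Of the 12 glucocorticoid-responsive genes 3 rose and 1 fell by the adjusted p in control against ND; Lcn2, at 3.67, also belongs to the acute phase response, Fkbp5 was at 0.48 and Klf9 at -0.74, so these genes did not share 1 direction.

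**Figure D5:**
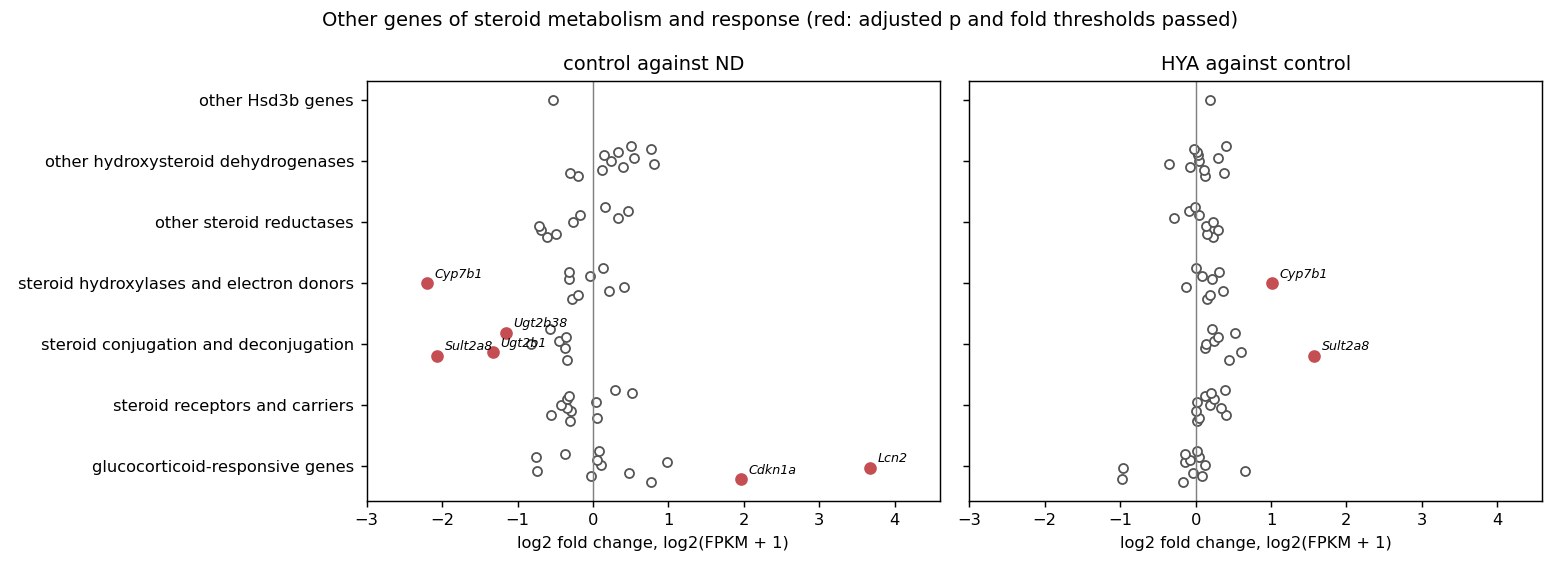
Log2 fold changes on the log2(FPKM + 1) scale (horizontal axes) of the 62 tested genes of steroid metabolism and response, by functional group (rows; the vertical spread within a row only separates points), in control against ND and HYA against control. Filled points passed both thresholds: 6 genes on the left, and Sult2a8 and Cyp7b1 on the right.

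Values of other genes that moved with the members stand beside these results. Of the 14 male-biased liver genes 12 fell past both thresholds in control against ND (11 with TPM; median -2.59), among them Cyp2d9 at -1.98, Cyp4a12b at -2.98 and Mup1 at -4.12, and 5 rose in HYA against control (Mup11, Slco1a1, Mup1, Cyp4a12a and Cyp7b1; 4 with TPM). Of these 5 calls 0 were left without HYA mouse 2 or with only the groups compared in the fit, 1 (Cyp4a12a) without HYA mouse 1, HYA mouse 3 or control mouse 3 or with no minimum level, and 2 (Mup11 and Slco1a1) without control mouse 1. Of 15 female-biased genes only 5 passed the minimum level, and Cyp2b13, at 0.34 FPKM on average in ND mice, passed it through the other groups. Of these 5 genes 4 rose in control against ND (median 1.96), including Cyp2b9 by 3.23, Cyp2b13 by 1.96 and Abcd2 by 1.64. Cyp2b9 fell by 1.04 in HYA against control, a call that was lost without HYA mouse 1, HYA mouse 2 or control mouse 1, with no minimum level and with only the groups compared. Cyp7b1 and Ugt2b38 are also among the pathway genes, and Mup, Cyp4a12 and Cyp2b genes have close copies whose fragments may be split. The 8 hepatocyte markers had medians of -0.69 in control against ND, 0.27 in HYA against control and 0.24 in HYA against LA, and summed to 48590 to 50030 FPKM in ND mice, 31790 to 36650 in control mice, 41060 to 43780 in HYA mice and 35060 to 36350 in LA mice. Cholangiocyte markers summed to 19.1 to 27.8 FPKM in ND mice, 78.0 to 171.7 in control mice, 38.6 to 52.5 in HYA mice and 81.4 to 134.6 in LA mice, and stellate cell markers to 37.5 to 48.6, 83.3 to 108.7, 65.1 to 79.4 and 90.8 to 109.0. Only 3 of the 6 cholangiocyte markers passed the minimum level, and of these 2 were higher and 1 lower in control than in ND mice. Endothelial markers summed to 49.0 to 60.1 FPKM in ND mice, below the 64.2 to 70.8 of the other groups. Sums of macrophage markers (88.4 to 158.0 FPKM over all mice) overlapped between groups, and lymphocyte markers stayed at or under 4.34 FPKM. The macrophage sum hides opposite changes: of its 7 genes 1 rose and 1 fell past both thresholds in control against ND (3.88% of all genes passed them). Pericentral hepatocyte genes summed to 4129 to 4477 FPKM in ND mice, 2273 to 3267 in control mice, 3729 to 4690 in HYA mice and 2077 to 3242 in LA mice, and periportal genes to 2990 to 3504, 2164 to 2983, 2498 to 2946 and 2061 to 2328. The periportal list includes Hsd17b13, and Cyp2e1 is in both the pericentral and the hepatocyte list. The part of these shifts in the members' values was not tested; in bulk liver, fewer cells of a type and less RNA per cell cannot be told apart.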

How the data were processed

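Liver RNA from 12 mice was sequenced as paired ends on the Illumina HiSeq platform. The deposited table holds FPKM per gene and mouse; per the labels, the authors' processing notes name fastp, HISAT2 2.0.5, featureCounts 1.5.0-p3 and GRCm38. The annotation release, strand setting and handling of multiply mapping fragments are not given in the sources used here. The study's methods speak of TPM, but column sums differed (342146 to 429287), so FPKM was used. All values were whole multiples of 1 fragment within 0.05, which gave fragment counts and depth; 3 fragments on a gene of 2 kb equal 0.0607 to 0.0944 FPKM.

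Groups follow the labels. Values were tested as log2(FPKM + 1) with limma 3.58.1 (R 4.3.3; moderated test with a mean trend, two-sided, all 12 mice in 1 fit) for the 11083 genes whose 12-mouse average reached 1 FPKM, with Benjamini-Hochberg adjustment; a call needed an adjusted p under 0.05 and a change above 1 on the log2 scale. The code was tested on simulated data. The members and lists were chosen with earlier results of these data known. Named were all members, the 3 genes of each pathway list and of the male- and female-biased lists with the lowest p in control against ND, their calls in the HYA comparisons, and the 3 genes most like Cyp17a1 and Hsd3b5 outside the members by Pearson r (clone names left out); Cyp11a1, Cdkn1a, Ugt2b38 and the remaining marker genes were named after their values were seen. Alternatives were a pseudocount of 0.1, no minimum, TPM, median-ratio size factors, voom on recovered fragments, only the groups compared, a replicate block, the adjusted p alone and leaving out each mouse. Sequences came from GENCODE M21 and RefSeq promoters (GRCm38.p6) and were aligned with Biopython 1.88; 98.3% of shared gene IDs had the same coordinates in GENCODE M21 and the deposited table.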

Additional observations from a re-analysis of the deposited data

Results flagged for a closer look

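Akr1c12 and Fdx1 lay above the control mean in every HYA mouse and below it in every LA mouse, with differences between HYA and LA of 0.37 and 0.36 on the log2(FPKM + 1) scale; neither passed the limma test of HYA against LA (adjusted p = 0.0907 and 0.0823), and the opposite sides as such were not tested. Cyp2b9 and Cyp2b13, from the female-biased list, lay below the control mean in every HYA mouse and above it in every LA mouse. They differed between HYA and LA by -1.30 and -1.38, and both passed the limma test of that difference (adjusted p = 0.0317 for each). Both calls were lost with no minimum level and without HYA mouse 1, HYA mouse 2 or any of LA mice 1 to 3, and that of Cyp2b13 also with only the groups compared in the fit.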

How the results depend on the processing

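In HYA against control the count of members called was 1 (Hsd3b5) with a pseudocount of 0.1, with TPM and with the replicate block, in place of 0, and 0 to 1 when 1 mouse was left out; in HYA against LA it was 1 with the replicate block and 0 to 1 when 1 mouse was left out. Same-numbered mice did not deviate together (r -0.40 to 0.29 over 18 pairs, 3 above 0.1), so the block pairs by number only; by it Hsd3b5 had an adjusted p of 0.0338 and 0.0426 in limma, and 4 members passed the adjusted p alone in HYA against control, beside 4.05% of all genes (2.8% without the block). The adjusted p of Hsd3b5 over all alternatives ran from 0.00121 to 0.261 in HYA against control and from 0.00101 to 0.269 in HYA against LA. Pathway genes called in HYA against control were 0 without the minimum level or with only the groups compared, 1 with TPM, 6 by the adjusted p alone and 0 to 2 when 1 mouse was left out, in place of 2; in HYA against LA they were 1 with the replicate block in place of 0, and in control against ND 36 by the adjusted p alone in place of 6. The cause of these shifts was not tested.
Signs that turned belonged to differences near 0: with TPM, Hsd17b2 (-0.039) and Hsd17b6 (-0.0040) in HYA against LA and Hsd17b6 (-0.036) in HYA against control; in LA against control, Hsd3b5 with a pseudocount of 0.1 (0.16) and with voom (0.39). With 1 mouse left out the ranges that crossed 0 were in HYA against LA, -0.054 to 0.22 for Hsd17b2, -0.024 to 0.24 for Hsd17b6, in HYA against control, -0.066 to 0.29 for Hsd17b6, and in LA against control, -0.25 to 0.28 for Hsd3b5, -0.18 to 0.32 for Hsd3b2, -0.10 to 0.22 for Hsd3b3, -0.067 to 0.12 for Srd5a1, -0.057 to 0.19 for Hsd11b1 and -0.18 to 0.17 for Hsd17b6. No difference of a member from ND changed sign. With 3 mice per group and 3 to 42 fragments of Hsd3b5 in most mice fed a high-fat diet, depth limits statements on that gene.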
